A study of Mus musculus with 27 samples.

Results

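Regulatory T cells (Tregs) taken from lymph node were compared with naive T cells from the same kind of tissue, gene by gene. The comparison rests on 6 of the 27 arrays of the series, the 3 labelled as peripheral Treg of the lymph node and the 3 labelled as peripheral naive T cell of the lymph node. Both groups came from BALB/c mice, were untreated as far as the labels go, and were measured with Affymetrix 3' expression arrays. The labels give no age and do not say whether the 3 arrays of a group came from separate animals. They give neither the gates of the lymph node sort nor a CD4 gate for the naive cells. The SE and p-values rest on the spread among arrays within all 9 groups of the series, thymic ones included, and this spread may be technical. Of the other 21 arrays, 12 serve here as a point of reference. They are 3 each of thymocytes labelled Foxp3+ or Foxp3- at low CD24 (CD24lo) and at intermediate CD24 (CD24int). Thymocytes lose CD24 from their surface as they mature. The study's design takes the Foxp3- cells as conventional T cells, while the source field of their labels also reads Treg. The series title speaks of Foxp3GFP, a reporter of Foxp3.

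Values are the authors' RMA intensities, taken to log2 here. Every level below is such a log2 value for the brightest probe set of a gene, and a level of one gene cannot be set against that of another. A difference is the Treg mean minus the naive mean on the log2 scale, given ± its standard error (SE, n = 3 and 3), and "rose", "fell", "higher" and "lower in Tregs" are used of genes with an adjusted p under 0.05 (limma, adjusted by Benjamini-Hochberg over all 18194 genes). No array depth exists for such data, and the number of arrays limits the precision. Intensities ran from 3.55 to 24083 over the series, array medians from 30.3 to 32.0, and replicates correlated at 0.993 to 0.995 among Tregs and 0.993 to 0.996 among naive cells. No intensity was 0, so a gene that is off still has a low value.

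Tregs are CD4 T cells that restrain other immune cells. They depend on the transcription factor Foxp3, they take up interleukin 2 through the receptor chain Il2ra, and they carry the inhibitory receptor Ctla4. In lymph nodes they lie among naive T cells, which recirculate through the node by way of the chemokine receptor Ccr7, depend on interleukin 7 and have not yet met their antigen. Part of the lymph node Treg pool is known to have been activated by antigen, and such effector Tregs lose Ccr7 and gain receptors for barrier tissues, Klrg1, interleukin 10 and granzyme B.

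The 4 genes used to mark the lymph node Tregs are Foxp3, Itgae, Klrg1 and Pdlim4. RefSeq promoter windows on GRCm38.p6 were at hand for Foxp3 and Pdlim4, and the 150 bases before each start are shown because these genes stand near the top of the rises and of the falls. The capitals mark CG pairs, the sites of DNA methylation, searched as the letters CG, which read the same on both strands.
Foxp3 start 1, chrX:7579526-7579675, plus strand: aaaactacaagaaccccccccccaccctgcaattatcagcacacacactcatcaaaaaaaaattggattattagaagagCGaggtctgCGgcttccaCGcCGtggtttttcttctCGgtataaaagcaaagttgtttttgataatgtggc
Foxp3 start 2, chrX:7580333-7580482, plus strand: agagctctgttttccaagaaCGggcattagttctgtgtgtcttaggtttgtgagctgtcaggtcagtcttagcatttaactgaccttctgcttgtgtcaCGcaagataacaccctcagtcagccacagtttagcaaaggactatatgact
Pdlim4, chr11:54069018-54069167, minus strand: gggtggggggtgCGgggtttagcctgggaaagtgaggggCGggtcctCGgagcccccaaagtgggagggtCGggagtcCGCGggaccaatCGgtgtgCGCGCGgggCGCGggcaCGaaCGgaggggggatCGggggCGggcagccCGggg
The first Foxp3 window held 5 CG pairs at a GC content of 43.3%, the second held 2 at 44.7%, and the Pdlim4 window held 17 at 76%. Among 32851 windows of the same length, 85.7% held at least 1 CG pair, the median was 4, and 11% held as many as the Pdlim4 window. These counts describe the letters alone, and methylation was not measured.

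The markers went with the labels. Foxp3 (chromosome X) read 9.91, 10.03 and 9.74 in Treg replicates 1, 2 and 3 and 4.37, 4.21 and 3.94 in naive replicates 1, 2 and 3. That is a difference of 5.72 ± 0.17, or 52.7-fold (limma adjusted p = 1.19e-17). Itgae (chromosome 11), the integrin chain CD103 that binds E-cadherin on epithelium, read 11.29, 11.26 and 10.90 in Tregs and 4.79, 4.52 and 4.88 in naive cells. Its 85.7-fold difference (6.42 ± 0.42, adjusted p = 2.58e-11) was the largest rise of all genes tested, and its other probe set differed by 5.49. Klrg1 (chromosome 6), an inhibitory lectin-like receptor of highly differentiated T and NK cells, read 10.38, 10.13 and 10.82 against 5.19, 5.24 and 5.51 (5.13 ± 0.20, adjusted p = 2.6e-15). Pdlim4 (chromosome 11), a protein of the actin cytoskeleton with a PDZ and a LIM domain, went the other way, with 5.46, 4.23 and 5.35 in Tregs and 10.26, 10.30 and 10.21 in naive cells. It was 37.9-fold lower in Tregs (-5.24 ± 0.23, adjusted p = 1.95e-14). In all 4 genes the arrays of the groups lay far apart and did not overlap, which 28.7% of all genes also did not. These markers were chosen with earlier results of these data known, so their separation is a description and not a test.

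The T cell receptor chains Cd3d and Cd3g showed no difference past the test (-0.06 ± 0.14 and -0.06 ± 0.11). Cd4 read 8.85, 8.20 and 8.47 in Tregs and 9.16, 8.70 and 8.69 in naive cells (-0.34 ± 0.16, adjusted p = 0.202), values that overlap between the groups. Ccr7, which draws cells into the node, read 9.82, 9.91 and 10.15 in Tregs and 11.35, 11.33 and 11.28 in naive cells and fell by 1.36 (SE 0.15, adjusted p = 3.24e-07). The interleukin 7 receptor Il7r stood at 11.98, 11.89 and 12.00 in Tregs and at 12.55, 12.36 and 12.51 in naive cells, and its difference did not pass (-0.52 ± 0.34, adjusted p = 0.433). The arrays of the groups did not overlap in Il7r (SD 0.06 and 0.10), and it passed with the 6 arrays fitted alone (adjusted p = 0.0104). In the fit of all 27 arrays its spread includes wider groups, such as the Treg precursors (SD 1.18). The naive marker Tcf7 was not analysed here.

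Of the 18194 genes, 2250 (12.4%) passed between the groups, 1458 (8.01%) higher and 792 (4.35%) lower in Tregs. With a 2-fold change as well, 570 (3.13%) were higher and 162 (0.89%) lower. At 4-fold the counts were 170 and 42, and at 16-fold 17 and 8. Arrays of the groups did not overlap in 5228 genes (28.7%), of which 2208 also passed the test. With the replicate number as a block, 1977 genes were higher and 1313 lower, and after quantile normalization 1343 were higher and 1153 lower, so the share of passing genes that were higher went from 64.8% to 53.8%. The 39 gene lists described below hold 541 measured genes, among them 63 of the 170 genes with a 4-fold rise and 15 of the 42 with a 4-fold fall. Each list count below is to be read beside the shares over all genes, 8.01% higher and 4.35% lower.

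**Figure D1:**
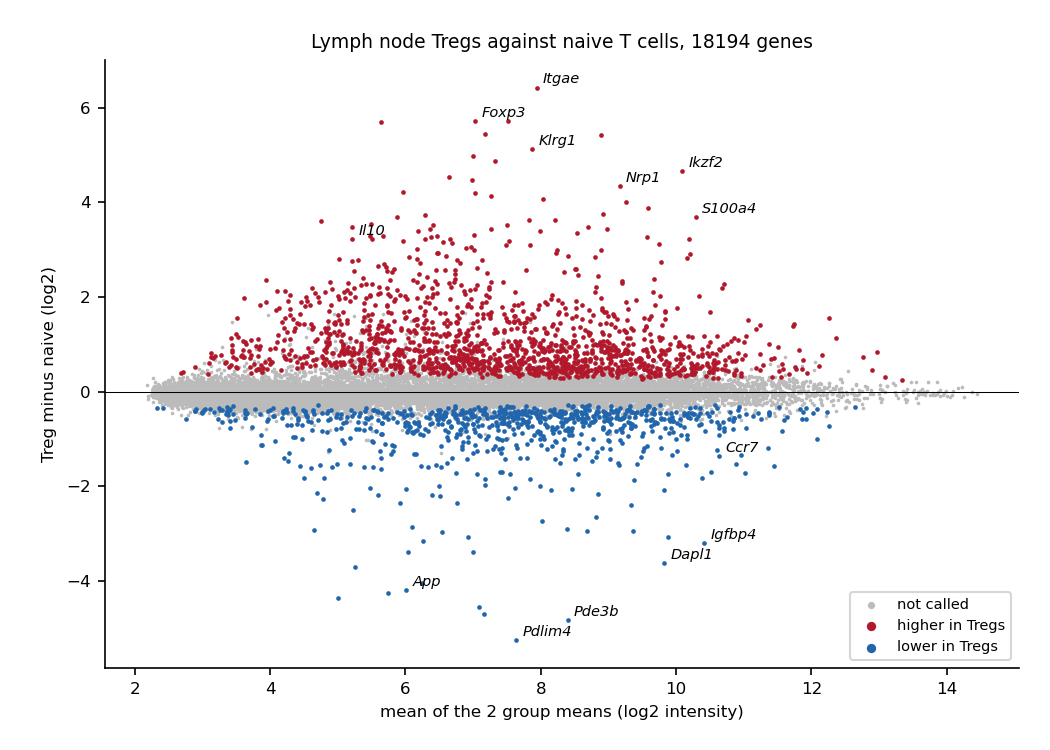
Difference between lymph node Tregs and lymph node naive T cells (vertical axis, log2) against the mean level of the gene over the 6 arrays (horizontal axis, log2 intensity) for 18194 genes, with passing genes coloured by direction. The 1458 genes higher in Tregs reach 6.42 (Itgae) and the 792 lower genes reach -5.24 (Pdlim4).

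The 12 largest rises mixed the genes that define Tregs with genes of other functions. Next to Itgae and Foxp3 stood Cyp4f18, an enzyme that inactivates leukotriene B4, with 10.51, 10.52 and 10.08 in Tregs against 4.59, 4.70 and 4.69 (5.71 ± 0.25, adjusted p = 1.09e-14). A second probe set of Cyp4f18 differed by -0.02, so its rise rests on 1 probe set. Itgb8, the integrin chain that releases active TGF-beta from its latent form, read 8.48, 8.67 and 8.32 against 2.93, 2.94 and 2.50 and was 52.0-fold higher (5.70 ± 0.18, adjusted p = 3.09e-17). Il2ra read 9.65, 9.93 and 10.12 against 4.90, 4.29 and 4.16 (5.45 ± 0.20), and Ctla4 read 11.83, 11.67 and 11.30 against 6.09, 6.45 and 6.00 (5.42 ± 0.32). Their adjusted p were 8.24e-16 and 2.56e-12.

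Dusp4, a phosphatase that switches off ERK, rose by 4.97 ± 0.33, from 4.39, 4.42 and 4.76 in naive cells to 9.34, 9.46 and 9.68 in Tregs. Penk, the precursor of the enkephalin opioid peptides, read 10.12, 9.31 and 9.83 in Tregs and 5.43, 4.86 and 4.35 in naive cells (4.88 ± 0.24, 29.4-fold). Ikzf2, the zinc finger factor Helios, read 12.49, 12.51 and 12.25 against 8.14, 7.75 and 7.39 (4.65 ± 0.17), with 5.35 and 3.33 from its other probe sets. The list was completed by the zinc finger factor Plagl1 (4.53 ± 0.23) and by Prg4, the joint lubricant lubricin, at 8.97, 9.43 and 9.24 against 4.67, 5.06 and 4.51 (4.47 ± 0.22). The other probe sets of Plagl1 differed by only 0.23 and 0.15. None of these 12 genes overlapped between the groups, as the rule for naming them required.

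The 12 largest falls followed Pdlim4 with 2 phosphodiesterases, enzymes that break down cyclic nucleotides. Pde3b read 6.84, 5.58 and 5.55 in Tregs and 11.10, 11.05 and 10.26 in naive cells, a 28.2-fold difference (-4.82 ± 0.34, adjusted p = 7.67e-11). Pde5a read 3.77, 3.53 and 3.54 against 7.89, 8.22 and 7.52 (-4.26 ± 0.32), and its other probe sets differed by -4.54 and -1.53. Vipr1, the receptor for vasoactive intestinal peptide, which raises cyclic AMP, read 5.18, 4.73 and 4.51 against 9.37, 9.36 and 9.34 (-4.55 ± 0.26). Lypd6b, a small protein of the Ly6 family, was nearly as flat within each group, at 4.98, 4.64 and 4.82 against 9.48, 9.46 and 9.56 (-4.69 ± 0.21).

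Genes better known from NK and innate-like T cells were also among the falls. The NK receptor chain Klrd1 (CD94) read 2.83, 2.95 and 2.67 in Tregs and 6.90, 7.22 and 7.41 in naive cells (-4.36 ± 0.39). Cxcr6, the receptor for Cxcl16, read 4.31, 4.37 and 4.02 against 8.52, 8.37 and 7.93 (-4.04 ± 0.50), with -4.07 from its other probe set. The amyloid precursor protein App read 3.94, 3.57 and 4.24 against 8.15, 8.41 and 7.75 (-4.19 ± 0.43), while its 3 other probe sets differed by -1.59, -0.08 and -0.08. The remaining falls of this group were the interleukin 36 receptor Il1rl2 (-3.70 ± 0.26, with -0.44 from another probe set), Dapl1 (-3.61 ± 0.31), the heparan sulfate sulfotransferase Hs3st3b1 (-3.39 ± 0.26, with -0.09, -0.69 and -0.21 from others) and the transporter Slc16a5 (-3.38 ± 0.19, with -0.15 from another probe set).

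**Figure D2:**
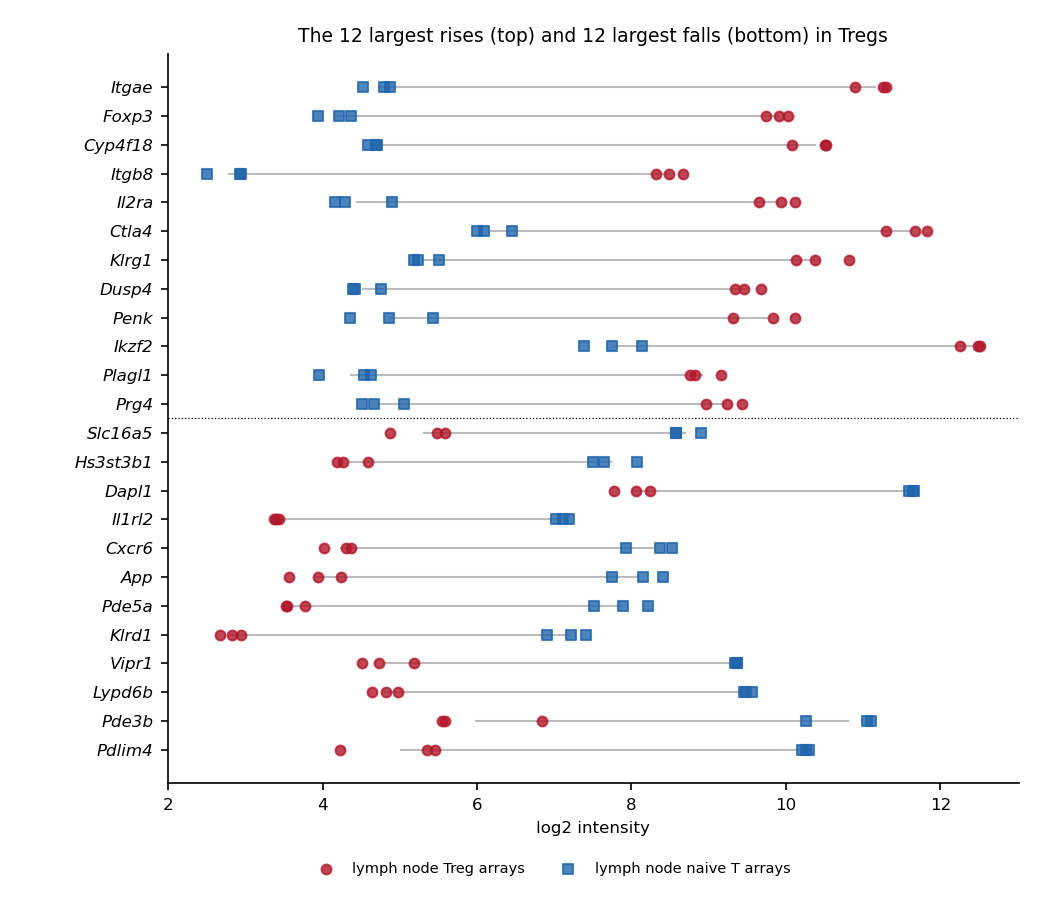
Log2 intensity in each of the 6 lymph node arrays (points) for the 12 genes with the largest rises and the 12 with the largest falls in Tregs. The Treg and naive points of a gene form separate clusters, from Itgae at 10.90 to 11.29 against 4.52 to 4.88 down to Slc16a5 at 4.87 to 5.58 against 8.58 to 8.90.

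Genes that define Tregs rose together. All 20 measured genes of the Treg identity list were higher in Tregs, with a median difference of 4.01 against -0.04 for all genes. Beyond those given above, Nrp1, a semaphorin receptor used to mark thymus-derived Tregs, read 11.14, 11.48 and 11.39 against 7.25, 7.21 and 6.52 (4.34 ± 0.23). Cd83, a surface protein of activated lymphocytes, rose by 4.13 ± 0.19, and Ikzf4, the factor Eos that works with Foxp3, by 2.92 ± 0.12. The costimulatory receptor Icos read 11.78, 11.51 and 11.44 against 8.98, 8.64 and 8.59 (2.83 ± 0.32). The smallest difference of the list was that of the folate receptor family member Izumo1r (2.10 ± 0.16), a gene named after its values were seen.

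Of 17 measured genes that encode suppressive molecules, 13 rose, 1 fell and 3 did not pass (median difference 1.42). Il10, the suppressive cytokine, read 7.30, 6.57 and 6.62 in Tregs and 3.15, 3.81 and 3.84 in naive cells (3.23 ± 0.23, adjusted p = 7.93e-11). Granzyme B (Gzmb), a protease of killer granules, read 8.45, 7.63 and 8.26 against 5.01, 4.90 and 4.57 (3.29 ± 0.33), and the secreted fibrinogen-like protein Fgl2 read 8.03, 8.20 and 8.00 against 4.80, 4.90 and 4.24 (3.43 ± 0.35). Each Treg array of these genes lay at least 2 log2 units above every naive array. Ebi3, a subunit of interleukins 27 and 35, rose by 2.56 ± 0.23, and Entpd1 (CD39), which breaks down extracellular ATP, by 2.54 ± 0.18. Il12a, the other subunit of interleukin 35, was at 3.33, 3.51 and 4.20 in Tregs and at 3.53, 3.56 and 3.68 in naive cells and did not pass (adjusted p = 0.858). Tgfb1 did not pass either (0.46 ± 0.19, adjusted p = 0.138). The 1 fall was that of perforin, Prf1, named after its values were seen, with 5.87, 6.06 and 6.04 against 7.43, 7.55 and 7.22 (-1.41 ± 0.16), so the granule protease and the pore-forming protein moved in opposite directions. With dim genes, those under the median level of all genes, left out, 8 rises remained tested and called.

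Receptors that steer cells to tissues changed in both directions. Of 19 measured chemokine and attractant receptors, 10 rose, 3 fell and 6 did not pass, with a median difference of 0.76. Gpr15, a receptor that brings T cells to the large intestine, read 6.89, 6.85 and 7.09 in Tregs and 3.89, 3.03 and 3.48 in naive cells (3.48 ± 0.17, adjusted p = 1.66e-13). Ccr6, which responds to Ccl20 of epithelium, read 9.31, 9.21 and 8.83 against 6.39, 5.63 and 5.81 (3.18 ± 0.18). The skin-homing receptors Ccr10 (1.88 ± 0.23) and Ccr4 (1.62 ± 0.15) rose as well, as did Ccr3 (2.35 ± 0.15), a receptor best known from eosinophils. Cxcr5, which leads cells to B cell follicles, rose by 2.08 ± 0.26, and Cxcr3, the receptor for chemokines that interferon gamma induces, by 1.52 ± 0.38. The falls were those of Ccr7, Cxcr6 and Gpr183, a receptor for oxysterols that positions cells in the node (-1.19 ± 0.14). With dim genes left out, 5 rises remained tested and called.

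Among 25 measured integrins, selectins and ligands, 8 rose and 3 fell (median difference 0.11), so the rises of Itgae and Itgb8 were not shared by most of that list. Itgav, the partner of Itgb8, read 9.87, 9.97 and 9.80 against 8.60, 8.72 and 8.57 (1.25 ± 0.12), and Itgb1 rose by 1.69 ± 0.25. The adhesion molecules Alcam (2.72 ± 0.19), Icam1 (1.74 ± 0.10) and Cd44 (1.16 ± 0.16) rose too, the last being raised in antigen-experienced T cells. Itgb3 fell, from 8.85, 8.93 and 9.18 in naive cells to 6.92, 6.89 and 7.18 in Tregs (-1.99 ± 0.20). Itgal and Itgb2, the chains of LFA-1, differed by 0.04 ± 0.09 and -0.10 ± 0.12, and neither passed. Of 15 killer cell lectin-like receptors, 1 rose (Klrg1) and 2 fell (Klrd1 and Klrk1), where 8.01% of all genes rose and 4.35% fell. The count of rises is thus near that of any genes. Klrk1 (-0.71 ± 0.22) did not pass without Treg replicate 2 or 3 or naive replicate 1 or 3. With the replicate block Klrb1f was a further rise (0.87, adjusted p = 0.0222).

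Of 25 costimulatory and inhibitory receptors, 13 rose and 1 fell (median 0.48). Besides Ctla4 and Icos, Pdcd1lg2, a ligand of PD-1, read 7.91, 7.74 and 8.10 in Tregs and 5.11, 5.03 and 4.86 in naive cells (2.92 ± 0.21). PD-1 itself, Pdcd1, rose by 1.96 ± 0.21, the costimulatory ligand Cd80 by 1.90 ± 0.18, Cd200 by 1.81 ± 0.18 and Lag3 by 1.40 ± 0.18. Cd28, the main costimulatory receptor of naive cells, did not differ past the test (0.06 ± 0.12). Of 25 genes of the TNF receptor superfamily and its ligands, 10 rose and 5 fell (median 0.06). The costimulatory receptors Tnfrsf4 (OX40), Tnfrsf9 (4-1BB) and Tnfrsf18 (GITR) rose by 3.88 ± 0.18, 3.63 ± 0.27 and 2.28 ± 0.14. Tnfrsf1b, the TNF receptor that sustains Tregs, read 10.41, 10.11 and 10.16 against 7.41, 7.41 and 7.33 (2.84 ± 0.16), while Tnfrsf1a, the death domain receptor for TNF, stood at -0.45 ± 0.15 (adjusted p = 0.0546, but 0.00405 with the replicate block and 0.0253 to 0.0494 in 4 other alternatives). The ligands Fasl (-1.57 ± 0.40), Tnfsf8 (-1.14 ± 0.27) and Cd40lg (-0.80 ± 0.16) fell. Without naive replicate 1 the falls of this list numbered 3, and Tnfsf8 was among those lost (-0.80, adjusted p = 0.0575).

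Receptors for cytokines split in the same way. Of 27 interleukin and TGF-beta receptor genes, 10 rose and 4 fell (median -0.04). Il2rb, the signalling chain of the interleukin 2 receptor, read 10.74, 10.72 and 10.62 in Tregs and 7.72, 7.29 and 6.76 in naive cells (3.44 ± 0.18, adjusted p = 3.36e-13). The decoy receptor Il1r2 rose by 2.93 ± 0.22, Il10ra by 2.04 ± 0.21 and Il12rb1 by 1.57 ± 0.22. The TGF-beta receptors parted: Tgfbr1 rose from 8.72, 8.89 and 8.68 to 10.54, 10.78 and 10.50 (1.84 ± 0.11), whereas the coreceptor Tgfbr3 fell from 10.84, 10.92 and 10.76 to 7.80, 8.04 and 7.85 (-2.94 ± 0.17). Downstream of interleukin 2, 9 of 15 genes rose and 2 fell (median 0.61). The feedback inhibitors Socs2 (3.39 ± 0.22) and Cish (2.10 ± 0.13) and the kinase Pim1 (2.19 ± 0.13) rose, Socs1 rose by 0.81 ± 0.17, and the related kinase Pim2 fell by 0.99 (SE 0.12). The second fall, Myc (-0.46 ± 0.12), did not pass without Treg replicate 1 or naive replicate 2 or 3.

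Most cytokines other than Il10 did not pass the test. Of 19 measured, 2 rose, namely Il10 and lymphotoxin alpha (Lta, 1.56 ± 0.12), and 3 fell. Interleukin 2 itself read 3.06, 3.47 and 3.37 in Tregs and 4.87, 4.07 and 4.31 in naive cells (-1.12 ± 0.22, adjusted p = 0.000666). Il21 fell by 1.04 (SE 0.22), and Il4 (-1.46 ± 0.38) did not pass without naive replicate 1 (-1.14, adjusted p = 0.0842). These 3 genes are dim, and with dim genes left out none of them was tested. Ifng was at 8.08, 7.22 and 7.22 in Tregs and at 7.68, 7.27 and 6.46 in naive cells and did not pass (adjusted p = 0.721).

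Of 23 transcription factors of differentiated T cells, 15 rose and 1 fell (median 0.98). Prdm1 (Blimp-1), a factor of effector Tregs that is known to act on Il10, read 8.48, 8.01 and 8.28 in Tregs and 5.00, 4.98 and 5.35 in naive cells (3.14 ± 0.25, adjusted p = 7.64e-10). Irf4, its partner in effector Tregs, read 8.65, 8.27 and 8.89 against 6.40, 6.23 and 6.25 (2.31 ± 0.16). Nfil3 (3.01 ± 0.26), the aryl hydrocarbon receptor Ahr (2.86 ± 0.20, with 0.12 from a dimmer probe set), Hopx (2.37 ± 0.22), Ikzf3 (2.02 ± 0.11), Rora (1.82 ± 0.16) and Batf (1.34 ± 0.11) rose as well. The 1 fall was Id2, an inhibitor of E proteins, at 9.78, 9.53 and 9.68 against 11.27, 11.46 and 11.33 (-1.69 ± 0.18), and Maf rose by 2.90 ± 0.43 (both named after their values were seen).

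Genes of the naive state were lower in Tregs. Of 18 measured naive T cell genes, 15 fell and 1 rose, with a median difference of -1.54. Igfbp4, a binding protein of insulin-like growth factors, read 8.71, 8.80 and 8.92 in Tregs and 11.99, 12.05 and 11.98 in naive cells (-3.20 ± 0.21, adjusted p = 1.67e-11). Dapl1, an mRNA known from naive and memory T cells, read 8.06, 7.77 and 8.24 against 11.66, 11.65 and 11.59. Tdrp fell by 2.64 (SE 0.14) and the actin cross-linker Actn1 by 1.72 (SE 0.14). The 1 rise was the integrin chain Itga6 (0.38 ± 0.11), named after its values were seen, which did not pass without Treg replicate 2 or naive replicate 3. Ms4a4b did not differ past the test (-0.13 ± 0.11).

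The 18 naive-state regulators did not go one way: 5 fell and 5 rose (median -0.19). Lef1, which with its relative TCF1 maintains T cell identity, fell by 1.19 (SE 0.12), the chromatin organiser Satb1 by 1.00 (SE 0.12) and Ikzf1 (Ikaros) by 0.82 (SE 0.11). Myb, a factor of progenitors and of effector Tregs, rose from 8.40, 8.21 and 8.14 to 9.74, 9.63 and 9.68 (1.44 ± 0.17). Eea1, an early endosome tether and not a transcription factor, was on this list and rose by 3.04 ± 0.31. Rises numbered 3 without naive replicate 1, where Id3 was among those lost (0.61, adjusted p = 0.0654), and falls 3 without naive replicate 2, where Bach2 was among those lost (-0.39, adjusted p = 0.0702). Ets1 and Bcl11b did not differ past the test (-0.04 ± 0.10 and -0.05 ± 0.13).

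**Figure D3:**
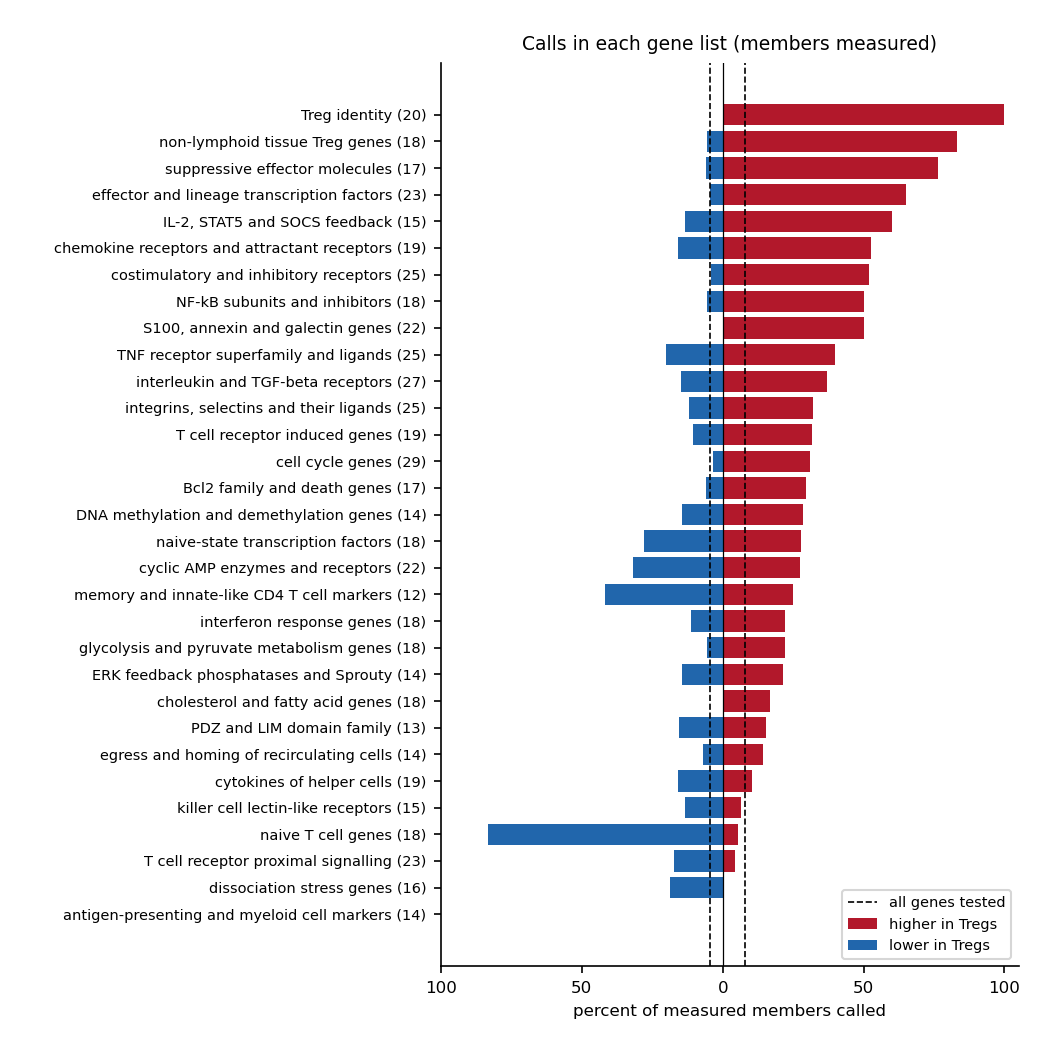
Percent of measured genes of each list that were higher (to the right) or lower (to the left) in lymph node Tregs, for lists with at least 10 measured genes, with dashed lines at the shares over all genes, 8.01% and 4.35%. The bar of the Treg identity list shows 20 of 20 genes higher, and that of the naive T cell genes 15 of 18 lower.

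Of 23 signalling genes next to the T cell receptor, 4 fell, 1 rose and 18 did not pass (median -0.11), where 4.35% of all genes fell and 8.01% rose. Themis, a regulator of T cell receptor signalling, read 7.60, 7.74 and 7.69 in Tregs and 9.52, 9.42 and 9.30 in naive cells (-1.73 ± 0.12, adjusted p = 1.06e-10), and the membrane adaptor Pag1 fell by 0.91 (SE 0.15). The other 2 falls, Lat (-0.43 ± 0.12) and Ptpn6 (-0.45 ± 0.14), did not pass without Treg replicate 2 or 3 or naive replicate 1 or 3. The rise was Sh2d1a, the adaptor SAP (0.67 ± 0.13), and with the replicate block 3 genes rose, Cd5 among them (0.36, adjusted p = 0.0246). Of 19 genes that the receptor induces, 6 rose and 2 fell (median 0.36). The orphan receptors Nr4a1 and Nr4a2 rose by 1.15 ± 0.15 and 2.01 ± 0.31 and Egr2 by 0.95 ± 0.16. Other probe sets of Nr4a2 were divided, with differences of 2.61, 1.39, 0.2, 0.19 and -0.28. Egr1 did not pass (0.12 ± 0.16), and the falls of Ier2 (-0.56 ± 0.15) and Myc were both lost without naive replicate 2, and 1 of them without Treg replicate 1 or 2 or naive replicate 3. Of 14 ERK feedback genes 3 rose and 2 fell, and within them Dusp4 rose while Dusp10 went from 9.49, 9.60 and 9.41 in naive cells to 8.27, 8.02 and 8.06 in Tregs (-1.38 ± 0.12). Spry1 rose by 1.45 ± 0.21, and the fall of Dusp6 (-1.43 ± 0.39) did not pass without Treg replicate 1 or naive replicate 2 or 3.

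The list of cyclic AMP enzymes and receptors, to which Pde3b, Pde5a and Vipr1 belong, went in both directions. Of 22 measured, 6 rose and 7 fell (median -0.03). Among phosphodiesterases Pde2a rose by 1.17 ± 0.14, whereas Pde4d fell by 0.84 (SE 0.13). Among receptors that raise cyclic AMP, the prostaglandin E2 receptors Ptger2 and Ptger4 rose, the first from 5.49, 5.03 and 5.59 to 7.96, 8.27 and 8.20 (2.77 ± 0.24) and the second by 1.17 ± 0.10, while Vipr1 fell. Crem, a transcription factor of the cyclic AMP response, rose by 1.62 ± 0.21. Adenylyl cyclase 7 (Adcy7) stood at -0.49 ± 0.24 (adjusted p = 0.229), and passed with the replicate block (0.018) and with the compared groups fitted alone (0.0274).

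Of 18 NF-kB subunits and regulators, 9 rose and 1 fell (median 0.53). Relb rose by 0.97 ± 0.11, Bcl3 by 1.03 ± 0.12 and the inhibitor Tnip1 by 0.90 ± 0.10, and the kinase of the alternative pathway, Map3k14, read 6.93, 6.88 and 7.16 in Tregs and 7.98, 8.02 and 7.94 in naive cells (-0.99 ± 0.10). Of 17 genes of the Bcl2 family and of cell death, 5 rose and 1 fell (median 0.17). The pro-death BH3 genes Pmaip1 (Noxa), at 8.21, 8.12 and 8.14 against 4.44, 4.98 and 3.87 (3.73 ± 0.38), and Bid (1.48 ± 0.15) rose, and so did the survival gene Bcl2l1 (1.23 ± 0.15). Bcl2 and Mcl1, survival genes as well, did not pass (0.17 ± 0.14 and 0.18 ± 0.10). With the replicate block 2 members of the list fell.

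Of 22 S100, annexin and galectin genes, 11 rose and 0 fell in limma (median 0.63), with 0 lower at an unadjusted p under 0.05 as well. S100a6 and S100a4, calcium-binding proteins of motile and antigen-experienced cells, had the largest differences. S100a6 read 11.17, 11.20 and 11.40 against 7.57, 7.21 and 7.00 (4.00 ± 0.50), and S100a4 read 12.08, 12.20 and 12.12 against 8.98, 8.39 and 8.00 (3.68 ± 0.49). Capg, an actin-capping protein, rose by 2.73 ± 0.11, Anxa2 and Anxa4 by 2.58 ± 0.21 and 2.58 ± 0.16, galectin 3 (Lgals3) by 2.27 ± 0.55 and S100a10 by 1.55 ± 0.14. S100a8 and S100a9, which belong to neutrophils, did not pass and are treated with the other cells below. Of 18 genes known from Tregs of non-lymphoid tissues, 15 rose and 1 fell (median 2.34). That list shares Itgae, Klrg1, Il10, Gzmb, Penk, Nrp1 and Fgl2 with lists already described, and its fall was Cxcr6.

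Of 29 cell cycle genes, 9 rose, 1 fell and 19 did not pass (median 0.72), and 17 rose with the replicate block. The proliferation marker Mki67 read 10.47, 9.16 and 9.20 in Tregs and 7.70, 6.57 and 6.96 in naive cells (2.53 ± 0.65, adjusted p = 0.00842), and thymidine kinase Tk1 read 7.72, 6.48 and 6.82 against 5.41, 4.71 and 5.03 (1.95 ± 0.30, adjusted p = 2.33e-05). Replicate 1 was the highest array of its group in both genes and in both groups. Birc5, needed for chromosome segregation, rose by 2.16 ± 0.44 and the replication helicase subunit Mcm6 by 1.00 ± 0.21, while Pcna did not pass (0.09 ± 0.15). Without Treg replicate 1, 5 genes rose and Mki67 did not pass (2.10, adjusted p = 0.0684). Without naive replicate 2 it stood at 2.28 (adjusted p = 0.0502), and the fall of Ccnd3 (-0.46 ± 0.15, named after its values were seen) was lost without any 1 of Treg replicates 1, 2 and 3 or naive replicates 1 and 3.

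Metabolic genes moved singly. Of 18 glycolysis and pyruvate genes 4 rose and 1 fell (median 0.07). The glucose transporter Slc2a3 read 11.38, 11.37 and 11.28 in Tregs and 9.67, 9.67 and 9.66 in naive cells (1.68 ± 0.12), and Pdk1, which keeps pyruvate out of the mitochondrial cycle, fell from 7.50, 7.60 and 7.85 to 6.49, 6.29 and 6.25 (-1.30 ± 0.20). Aldoa (-0.37) was a second fall with the replicate block (adjusted p = 0.00644) and after quantile normalization (0.0308). Of the 18 cholesterol and fatty acid genes, Scd2 rose by 1.00 ± 0.14, and the rises of Fdft1 and Abca1 did not outlast the loss of most single arrays, since 1 gene rose without Treg replicate 1, 2 or 3 or naive replicate 3.

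Of 14 genes of DNA methylation 4 rose and 2 fell (median 0.12). Uhrf1, which guides maintenance methylation in dividing cells, read 8.77, 7.60 and 7.56 in Tregs and 6.50, 6.25 and 6.22 in naive cells (1.65 ± 0.30), again with replicate 1 highest in each group. Gadd45b and Gadd45g, stress genes linked to demethylation, rose by 1.43 ± 0.21 and 1.90 ± 0.30, and the dioxygenase Tet1 fell by 1.01 (SE 0.19). Dnmt3b (-0.48 ± 0.13) did not pass without Treg replicate 3, and Dnmt1 did not pass (-0.03 ± 0.22). Of 18 interferon response genes 4 rose and 2 fell (median 0.10), and 5 fell with the block. Gbp3, an interferon-inducible GTPase, read 11.31, 11.23 and 11.07 against 8.24, 8.05 and 7.50 (3.27 ± 0.16), while Oas2 fell by 1.18 (SE 0.20) and Ifit2 by 0.65 (SE 0.12). Ly6e (1.03 ± 0.25) did not pass without Treg replicate 1.

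Of 13 genes of the PDZ and LIM domain family 2 rose and 2 fell (median -0.12). The second fall was Pdlim1, at 8.95, 8.94 and 9.21 in Tregs and 9.80, 9.98 and 10.15 in naive cells (-0.94 ± 0.18), about a unit on the log2 scale against the 5.24 of Pdlim4. The rises were the LIM protein genes Crip1 (1.40 ± 0.16) and Crip2 (0.56 ± 0.17), of which Crip2 did not pass without Treg replicate 3 or naive replicate 3. With the replicate block 4 members rose, Pdlim2 among them (0.29, adjusted p = 0.0389), while Pdlim5 was lower (-0.33, adjusted p = 0.027). Pdlim5 also passed as lower after quantile normalization (-0.39, adjusted p = 0.0408) and with probe sets averaged (-0.43, adjusted p = 0.00612), against 0.105 in the fit as reported.

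Markers of other cells were looked at because neither sort is described in full, and in bulk samples fewer cells of a type and less RNA per cell cannot be told apart. Of 7 NK and NKT cell markers 1 rose (Il2rb) and 2 fell (Zbtb16 and Klrk1, the second lost as given above), and the log2 of their summed intensity ran from 10.84 to 10.89 in Tregs and from 8.77 to 9.45 in naive cells. Il2rb, which Tregs express, carried that sum (means of 10.69 and 7.26), and it was the 1 member of the 7 with a difference above 0 (median -0.49). Zbtb16 (PLZF), the factor of NKT and other innate-like T cells, read 4.40, 4.61 and 4.50 in Tregs and 6.85, 6.68 and 6.54 in naive cells (-2.19 ± 0.39, adjusted p = 0.000205). Trgv1, a gamma delta T cell receptor segment, read 6.14, 6.01 and 6.60 against 8.34, 7.92 and 7.99 (-1.84 ± 0.46). It was the 1 of 5 gamma delta markers that fell, with summed levels of 7.84 to 8.72 in Tregs and 9.00 to 9.22 in naive cells. Of 12 memory and innate-like CD4 markers 3 rose and 5 fell, and 2 fell with dim genes left out, with sums of 11.86 to 12.04 against 11.35 to 11.95. Klrd1, Cxcr6, Fasl and Il4 were lower in Tregs, as was Zbtb16, which is itself one of the markers counted here. These falls are to be read beside the 3 rises of the memory and innate-like list, whose summed level was not lower in Tregs. Nkg7 (means of 7.93 in Tregs and 7.49 in naive cells), Ifng (7.50 and 7.14) and Sox13 (5.01 and 5.07) did not pass. The part of innate-like cells in the result was not tested.

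Of 6 CD8 T cell markers 1 rose, the cystatin Cst7 (2.59 ± 0.22), and 0 fell in limma, with 1 lower at an unadjusted p under 0.05, and 2 rose and 2 fell with the replicate block. Without naive replicate 1 the rises were 2, and without naive replicate 3 the falls were 1. Cd8b1 read 6.91, 6.85 and 7.58 in Tregs and 7.38, 7.63 and 7.93 in naive cells (-0.53 ± 0.30, adjusted p = 0.329, and 0.0461 in the block fit). No gene of the lists for B cells (9), antigen-presenting cells (14), granulocytes (7), stroma and endothelium (7), erythroid cells and platelets (4) or liver (5) passed in limma with all 27 arrays, no block and no other change of setting. At an unadjusted p under 0.05, 3 B cell genes were higher and 1 gene each of the stromal and erythroid lists was lower, and with the block 1 B cell gene rose (Ighm, 0.73, adjusted p = 0.00606) and 1 stromal gene fell (Pecam1, -0.42, adjusted p = 0.0347). Ighm also passed with the compared groups fitted alone (adjusted p = 0.00466), and Pecam1 passed there (0.0478), after quantile normalization (0.00902) and with dim genes left out (0.0368). In a limma fit of the 34958 single-symbol probe sets, another bright Ighm probe set (level 10.53) was higher in Tregs (1.38, adjusted p = 0.000248). A dim one (level 3.64) was lower (-0.37, adjusted p = 0.048), so the B cell list is not unchanged at every probe set. A single B cell gene also rose without Treg replicate 1 or naive replicate 3, and Pf4 of platelets fell without naive replicate 1 (-0.49, adjusted p = 0.0456). The B cell sum was 11.98 to 12.31 in Tregs and 11.41 to 11.52 in naive cells. Granulocyte genes differed widely within groups. S100a8 read 4.28, 6.70 and 8.79 in Treg replicates 1, 2 and 3 and 4.34, 6.43 and 8.69 in naive replicates 1, 2 and 3, and Ngp read 5.05, 5.85 and 8.02 against 5.57, 5.61 and 7.83. Same-numbered arrays of the 2 groups thus had like levels of neutrophil transcripts, and replicate 3 was highest in each. Of 16 dissociation stress genes 3 fell, and the heat shock gene Hspa1a varied by replicate too, at 7.77, 8.99 and 6.52 in Tregs against 9.78, 11.21 and 8.80 in naive cells (-2.17 ± 0.55). That count was 1 without Treg replicate 3 and 0 without naive replicate 2.

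The same difference was then set beside the thymus, where Foxp3+ and Foxp3- cells had been separated at CD24lo and CD24int. No array is shared between these comparisons. In the thymus 9.85% of genes were higher and 11.2% lower in Foxp3+ cells at CD24lo, and 8.66% higher and 6.62% lower at CD24int. Across the 18194 genes the lymph node difference correlated at 0.45 with the CD24lo difference and at 0.64 with the CD24int difference, a description without a test since genes are not replicates. Of the 570 genes at least 2-fold higher in lymph node Tregs, 262 (46% of them, and 46% of the 569 genes 2-fold higher at CD24lo) were also 2-fold higher in Foxp3+ CD24lo cells. At CD24int 325 were (57% of the 570 and 62.3% of 522). Of the 162 genes at least 2-fold lower, 89 (54.9%, and 16.4% of 543) were lower at CD24lo and 91 (56.2%, and 30.4% of 299) at CD24int. In the opposite direction, 63 of the higher genes (11.1%) were 2-fold lower in Foxp3+ cells at CD24lo, against 23 at CD24int.

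A test of the difference between differences found 1282 genes (7.05%) with a more positive and 714 (3.92%) with a more negative difference in lymph node than at CD24lo. Against CD24int the counts were 424 (2.33%) and 237 (1.3%). After quantile normalization the CD24lo counts were 1196 and 1039. Among genes that mark Tregs in both organs, the difference of Foxp3 was 5.72 in lymph node, 6.08 at CD24lo and 6.25 at CD24int, and Il2ra, Ctla4, Itgb8, Dusp4, Penk and Tnfrsf9 did not pass either test. Of the 20 Treg identity genes 6 were more positive and 3 more negative in lymph node than at CD24lo, and 4 and 3 than at CD24int. Ikzf2 was more positive against both (4.65 in lymph node, 1.35 at CD24lo, 3.17 at CD24int), and Ikzf4 was less so than at CD24lo (2.92 against 3.81, adjusted p = 0.000518).

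Klrg1 was one gene whose Treg level itself separated the organs. Its difference was 5.13 in lymph node, 2.22 at CD24lo and 1.97 at CD24int, and the lymph node excess was 2.92 ± 0.28 and 3.16 ± 0.28 (adjusted p = 6.53e-08 and 2.32e-07). Mean levels were 10.44 in lymph node Tregs, 7.22 and 6.95 in Foxp3+ CD24lo and CD24int cells, and 5.31, 5.01 and 4.98 in the respective Foxp3- or naive cells. Il10 had the same form, with means of 6.83, 4.17 and 4.00 in the Foxp3+ groups and 3.60, 3.32 and 3.26 in their counterparts (excess 2.38 ± 0.32 and 2.49 ± 0.32). For Prdm1 the mean was 8.26 in lymph node Tregs and 5.63 in Foxp3+ CD24lo cells, and its lymph node difference was larger than both thymic ones (adjusted p = 0.00346 and 0.00692). For Pdlim4 it was the comparison cells that differed: 10.26 in naive cells against 7.69 and 7.81 in Foxp3- CD24lo and CD24int cells, with 5.01, 4.66 and 4.69 in the Treg groups.

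**Figure D4:**
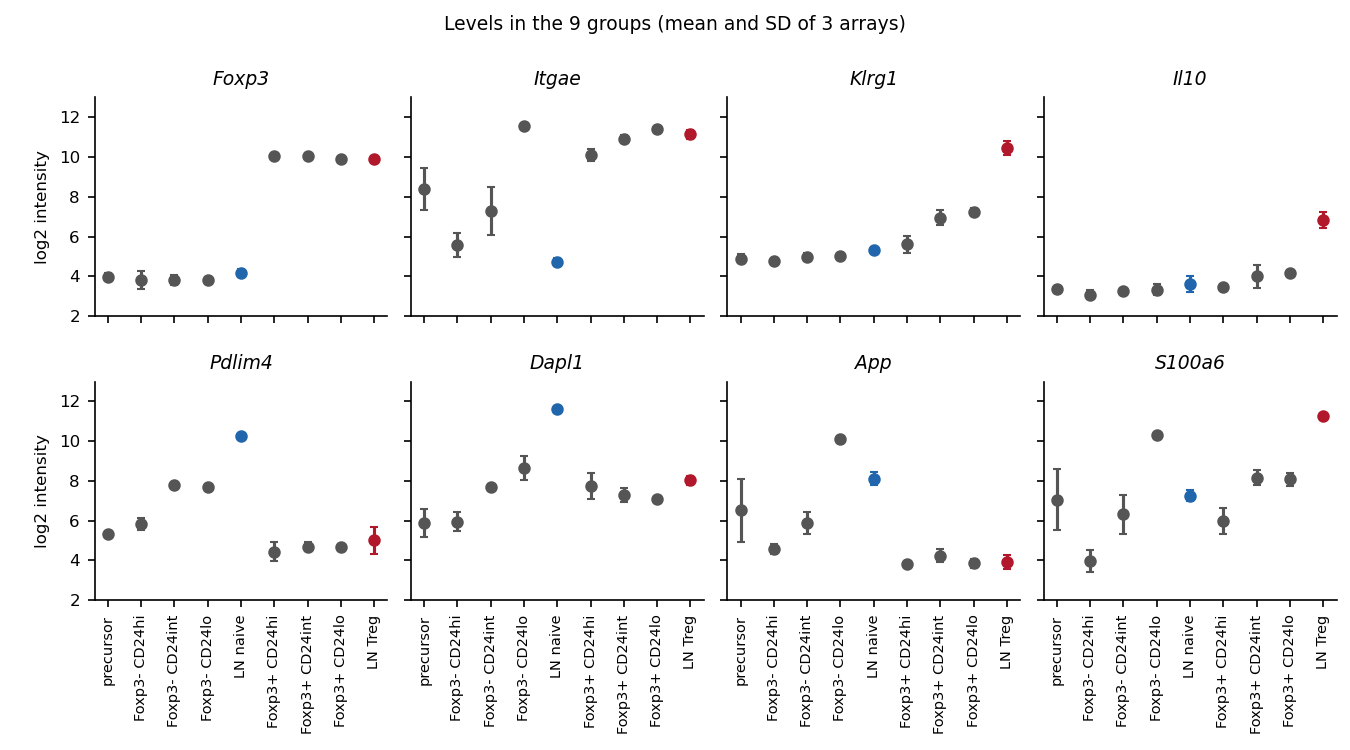
Mean log2 intensity with SD (n = 3) of Foxp3, Itgae, Klrg1, Il10, Pdlim4, Dapl1, App and S100a6 in the 9 groups of the series. Foxp3 lies near 10 in the 4 Foxp3+ groups alone, Klrg1 and Il10 are highest in lymph node Tregs, and Itgae, App and S100a6 are also high in Foxp3- CD24lo thymocytes (11.54, 10.11 and 10.29).

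The 6 genes with the most positive excess over CD24lo were Itgae (6.55 ± 0.60), Ccr10 (6.49 ± 0.32), Gzmb (6.26 ± 0.46), S100a6 (6.21 ± 0.71), Lgals3 (5.78 ± 0.77) and Fgl2 (5.33 ± 0.50). In each of them the Foxp3- CD24lo cells had a higher mean than the Foxp3+ CD24lo cells, for Itgae 11.54 against 11.41. In the same order Ccr10 averaged 9.38 and 4.78, Gzmb 9.00 and 6.03, and S100a6 10.29 and 8.08. The Treg side differed between the organs too. Lymph node Tregs averaged above Foxp3+ CD24lo cells in S100a6 (11.25 against 8.08), Ccr10 (7.29 against 4.78) and Gzmb (8.11 against 6.03). The same held for Lgals3 (7.60 against 5.57) and Fgl2 (8.08 against 6.17), but not for Itgae (11.15 against 11.41). Markers of innate-like cells were high in the Foxp3- CD24lo group as well, with means of 10.90 for Zbtb16, 12.30 for Trgv1 and 9.74 for Klrd1, against 6.69, 8.09 and 7.18 in lymph node naive cells. Their part in the result was not tested. Against CD24int the excess of Itgae was 2.79 ± 0.60, of Ccr10 2.59 ± 0.32 and of Gzmb 3.47 ± 0.46, all past the test, while that of S100a6 was not (2.15 ± 0.71, adjusted p = 0.11).

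The most negative excess over CD24lo was found in Tnfsf8 (-2.73 ± 0.38), Ccr7 (-2.64 ± 0.22), Slc16a5 (-2.61 ± 0.27), Amigo2 (-2.56 ± 0.35), Als2cl (-2.56 ± 0.28) and Pde5a (-2.53 ± 0.45). Ccr7 averaged 9.96 in lymph node Tregs and 11.32 in naive cells but 11.44 in Foxp3+ and 10.17 in Foxp3- CD24lo cells, so the sign of its difference turned between the organs. Naive T cell genes as a list went with it: 14 of 18 were more negative in lymph node than at CD24lo and 5 than at CD24int, and 0 were more positive in either limma test, with 1 in each at an unadjusted p under 0.05.

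Against CD24int the most positive excess was in cell cycle genes. Mki67 (4.62 ± 0.92), Cep55 (4.41 ± 0.92), Ncapg (4.30 ± 0.79), Birc5 (4.00 ± 0.62), Ube2c (3.96 ± 0.89) and Rrm2 (3.91 ± 0.67) led, and 20 of 29 genes of the list were more positive and 0 more negative in limma, also with 0 more negative at an unadjusted p under 0.05. Mki67 averaged 9.61 in lymph node Tregs and 7.08 in naive cells, but 8.25 in Foxp3+ and 10.33 in Foxp3- CD24int cells. In the node 9 of the 29 cell cycle genes were higher in Tregs and 19 did not pass, while 18 of 29 were lower in Foxp3+ cells at CD24int. Without Treg replicate 1, Mki67, Cep55, Ncapg, Ube2c and Rrm2 did not pass in the node (limma adjusted p from 0.0684 to 0.165). Between the lymph node groups, the other probe sets of Ncapg and Cep55 differed by 0.62 and 0.27, while those of Rrm2 differed by 1.87 and 1.31. With probe sets averaged, Ncapg did not pass in the node (1.37, limma adjusted p = 0.0697). The most negative excess was in Dapl1 (-3.18 ± 0.44), App (-2.55 ± 0.61), Pde5a (-2.48 ± 0.45), Socs2 (-2.44 ± 0.31), Sectm1a (-2.44 ± 0.33) and Camk2n1 (-2.18 ± 0.42). App did not pass without Foxp3- CD24int replicate 3 (-2.29, adjusted p = 0.0522). Dapl1 averaged 11.63 in naive cells and 7.71 in Foxp3- CD24int cells, with 8.02 and 7.28 in the Tregs of each organ. For Sectm1a the Treg side differed, with 4.91 in lymph node and 7.02 in Foxp3+ CD24int cells.

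Among the lists, suppressive molecules had 11 of 17 genes with a more positive difference in lymph node than at CD24lo and 5 than at CD24int, where 1 was more negative. The corresponding counts were 10 and 5 of 19 for chemokine receptors, 10 and 6 of 22 for S100, annexin and galectin genes, and 11 and 5 of 18 for genes of tissue Tregs. Killer cell lectin-like receptors gave 9 of 15 against CD24lo and 1 against CD24int, and gamma delta markers 5 of 5 and, in limma, 0 (3 at an unadjusted p under 0.05). Over all genes the shares with a more positive difference were 7.05% against CD24lo and 2.33% against CD24int.

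**Figure D5:**
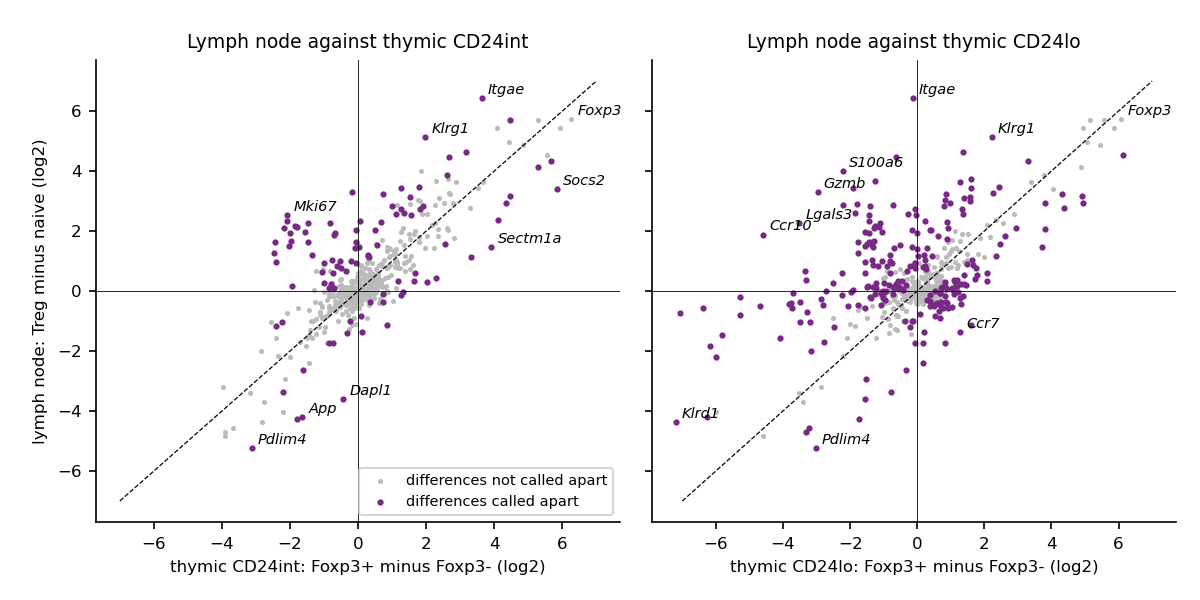
Difference between lymph node Tregs and naive cells (vertical axis, log2) against the difference between Foxp3+ and Foxp3- thymocytes (horizontal axis, log2) at CD24int and at CD24lo for the genes on the lists and those named, with genes whose 2 differences differ by the test in purple. Foxp3 lies close to the diagonal in both panels (5.72 against 6.25 and 6.08), whereas Itgae is at 6.42 against 3.63 and -0.13.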

How the data were processed

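RNA from sorted BALB/c T cells, extracted with RNeasy columns and labelled with biotin for 3' arrays per the labels' protocols, was measured on 27 arrays in 9 groups of 3. The deposited intensities were made by the authors with RMA per the submitters' processing notes, with no version or settings given. Being positive with medians near 30, they were taken as linear and the deposited values were transformed here to log2 with no constant added. Of 45101 probe sets, 34958 had a single symbol, 932 several and 9211 none. The brightest single-symbol probe set stood for each of 18194 genes, and no gene was filtered out.

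limma 3.58.1 in R 4.3.3 fitted 9 group means to 27 arrays with empirical Bayes moderation (prior degrees of freedom 5.98, two-sided p, Benjamini-Hochberg over 18194 genes, threshold 0.05), and was tested on simulated data. Median SE were 0.15 for the lymph node difference and 0.21 for an interaction. Replicates carry the leading digit of a description code, and no label says what it marks. Deviations of same-numbered lymph node arrays correlated at 0.42, 0.25 and 0.44, so from the data alone the numbers pair them, and a fit with that block was an alternative beside quantile normalization, removal of dim genes, averaging of probe sets, a variance trend, fitting of the compared groups alone and omission of arrays.

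The members, the comparison and the 39 lists were chosen with earlier results of these data known. Named genes were the markers and Il2ra, the 12 largest rises and falls without overlap, 6 per direction and interaction, and from each list up to 8 passing genes by p and 3 failing genes by level. Lists are described by counts and medians beside those of all genes. Promoter letters are RefSeq's (GRCm38.p6).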

Additional observations from a re-analysis of the deposited data

Results flagged for a closer look

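Differences between the lymph node comparison and its thymic counterparts were singled out where the test of the difference itself passed (limma, adjusted over all 18194 genes). Against Foxp3+ and Foxp3- CD24lo thymocytes 1282 genes had a more positive and 714 a more negative difference in lymph node. Against CD24int thymocytes the counts were 424 and 237. No array is shared between the comparisons.

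The most positive values against CD24lo were those of Itgae (6.55), Ccr10 (6.49), Gzmb (6.26), S100a6 (6.21), Lgals3 (5.78) and Fgl2 (5.33). In these 6 genes the Foxp3- CD24lo cells had the higher mean of the 2 thymic groups, with 9.08 and 5.57 for Lgals3 and 8.07 and 6.17 for Fgl2 in Foxp3- and Foxp3+ cells. Lymph node Tregs also averaged above the Foxp3+ CD24lo cells, at 7.60 for Lgals3 and 8.08 for Fgl2, except in Itgae (11.15 against 11.41). The most negative values were those of Tnfsf8 (-2.73), Ccr7 (-2.64), Slc16a5 (-2.61), Amigo2 (-2.56), Als2cl (-2.56) and Pde5a (-2.53). Tnfsf8, the CD30 ligand, averaged 5.95 in lymph node Tregs and 7.09 in naive cells, but 7.30 in Foxp3+ and 5.71 in Foxp3- CD24lo cells.

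Against CD24int the most positive values were those of the cell cycle genes Mki67 (4.62), Cep55 (4.41), Ncapg (4.30), Birc5 (4.00), Ube2c (3.96) and Rrm2 (3.91). The most negative were Dapl1 (-3.18), App (-2.55), Pde5a (-2.48), Socs2 (-2.44), Sectm1a (-2.44) and Camk2n1 (-2.18). No cause of these differences was tested.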

How the results depend on the processing

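With the replicate number as a block, 1977 genes were higher and 1313 lower in lymph node Tregs. Genes with a more positive or more negative difference than at CD24lo numbered 1868 and 1199 with the block, and than at CD24int 730 and 519. Across organs, deviations of same-numbered arrays correlated weakly to moderately. For naive and Foxp3- CD24int cells r ran from 0 (replicate 2) to 0.39 (replicate 1), and the other pairs of groups lay between these values. The block counts against the thymus thus rest on a number that no label explains. Leaving out 1 array at a time gave 1171 to 1401 higher and 572 to 676 lower genes between the lymph node groups. Against CD24lo the ranges were 1067 to 1285 and 592 to 640, and against CD24int 295 to 444 and 173 to 235. Without Treg replicate 2, 71% of passing genes were higher, against 64.8% with all arrays and 53.8% after quantile normalization, which took the share against CD24lo from 64.2% to 53.5%. Without the 1 thymic array that carried liver transcripts, 1444 genes were higher and 783 lower. Of the values of named genes under the alternatives, 3961 kept their side of the threshold, 98 lost the call and 57 gained it. The 3961 include any change of direction in a gene that passed in neither fit. In 1 value the direction changed and a fit passed. That was Nfatc1, at -0.23 (adjusted p = 0.352) for its brightest probe set and at 0.36 (adjusted p = 0.0324) when its probe sets were averaged. Among genes that the naming rule covers and the text gives, the block changed no other call between the lymph node groups. Genes outside that rule, such as Cd4, were not part of this check. The causes of these shifts were not tested. No genes are counted as absent, since dim probe sets have only low values, which understates folds of genes that are off.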

Other observations

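Outside the lists, genes of the cytoskeleton and of cell shape stood next to the named rises and falls. They are described here after their values were seen, and no theme was tested. Of the 170 genes with a 4-fold rise, 107 were on no list, and of the 42 with a 4-fold fall, 27. Neb, the giant actin-binding protein nebulin known from skeletal muscle, read 8.14, 8.07 and 8.00 in Tregs and 3.48, 3.60 and 4.47 in naive cells (4.22 ± 0.35). Tiam1, an exchange factor for Rac, rose by 3.75, the cytolinker dystonin (Dst) by 3.53 and Frmd4b by 3.43. The oxysterol-binding protein Osbpl3 (4.19), the small neuronal surface protein Nrn1 (4.06), the potassium channel Kcnk6 (3.68) and Itih5 (3.34) rose as well. In all of these genes the arrays of the groups did not overlap, as was so in 28.7% of all genes. These genes were picked for large differences, so their separation is a description and not a test.

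Some rises were smaller in the thymus. Nxpe4 differed by 3.60 in lymph node but by 0.66 at CD24lo and 0.97 at CD24int. F13a1, the A chain of coagulation factor XIII, differed by 3.19 in lymph node, by 1.43 at CD24lo and by -0.38 at CD24int. Among the falls outside the lists were Mctp2 (-3.15), the filamin-binding Rflnb (-3.07), the alcohol dehydrogenase Adh1 (-2.97), Enc1 (-2.94), Sema4a (-2.90) and the neurotrophin receptor Ntrk3 (-2.86). The sialyltransferase St8sia1 fell by 1.86 in lymph node and differed by -0.32 at CD24lo and -0.61 at CD24int.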
